A study of Mus musculus with 2 samples.

Results

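The genes described here encode nucleoporins, the proteins of the nuclear pore, and the receptors and regulators that carry cargo through it. They were taken by symbol from the 10666 genes of the expression table, as every gene whose symbol starts with Nup and a digit, Kpna, Kpnb, Ipo and a digit, Xpo or Tnpo, together with *Rangap1*, *Rcc1*, *Ranbp1*, *Ranbp2*, *Cse1l*, *Ndc1* and *Tpr*. This gave 48 genes, and *Ran* itself was not analysed here. All 48 were detected in at least 5% of the cells of each culture, as were 8333 genes of the table, with a range from *Nup160* in 10.6% and 6.38% of cells to *Ranbp1* in 99.8% and 99.7%.

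The nuclear pore is a ring of repeated subcomplexes, in which the Y complex and the inner ring form the scaffold, transmembrane nucleoporins hold it in the nuclear envelope, and channel nucleoporins with phenylalanine-glycine repeats form the barrier. Importins bind cargo in the cytoplasm and release it when they meet Ran loaded with GTP in the nucleus, while exportins bind cargo together with Ran-GTP and release it once the GTP is hydrolysed outside. In animal cells the pores come apart as the nuclear envelope breaks down in mitosis and are rebuilt afterwards, new pores are also inserted during interphase, and Ran-GTP and importins take part in building the spindle.

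Single-cell RNA-seq was done on 2 replicate cultures of wild-type neurospheres, floating spheres of dividing neural progenitors grown with EGF and bFGF from the dorsal telencephalon of C57BL/6 mice at embryonic day 14.5. How many embryos went into each culture is not given in the sources used here. Culture 1 holds 5748 cells with a median of 19477 UMIs and culture 2 holds 7057 cells with a median of 14637, and 48 cell barcodes occur in both. There is 1 condition, so no groups were tested, cells were not treated as replicates, and the spread given for each value is the distance between the cultures.

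The expression values are linear and scaled by the authors to nearly the same sum in every cell, so each describes a gene's share of a cell's RNA, and fewer transcripts of a gene and more transcripts of others cannot be told apart. The cell-cycle position is the authors' polar angle, in units of π, around the origin of a principal component analysis of cell-cycle genes. Mean values are compared here between a G1 arc (from 7π/4 through 0 to π/4, 2459 and 3991 cells in cultures 1 and 2), an S arc (π/2 to 3π/4, 709 and 524 cells) and a G2/M arc (3π/4 to 5π/4, 2056 and 1666 cells). Median UMIs per cell also differed between these arcs, with 18308 and 14105 in G1, 20253 and 15727 in S, and 22278 and 17440 in G2/M. In every pair of values below, culture 1 comes first.

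Of the markers of neural progenitors, *Fabp7* was detected in 100% and 99.96% of cells, *Nes* in 93.3% and 89.8% and *Pax6* in 21.1% and 23.1%. *Olig2*, listed for oligodendrocyte progenitors, was found in 97.3% and 91.9% of cells, and *Sox10* from the same list in 4.26% and 0.751%. Of the neuronal markers, *Map2* was detected in 77.7% and 63.6% of cells, *Dcx* in 7.34% and 1.56% and *Rbfox3* in 3.78% and 4.31%, so that *Map2*, with mean values of 1.76 and 1.68, makes up most of the neuronal sum. Over the 3 arcs, the 3 neuronal markers of the table summed to 1.82 to 1.94 in culture 1, with a range of 1.76 to 2.11 for culture 2. The 3 progenitor markers summed to 92.6 to 99.3 and 88.7 to 102, the 4 markers of oligodendrocyte progenitors to 5.37 to 6.57 and 5.66 to 6.01, and the 2 astroglial markers to 9.35 to 12.3 and 8.80 to 10.4. The other markers listed for these cell types, and all those of microglia, endothelium and erythroid cells, were not analysed here. The astroglial sum is mostly *Slc1a3* (mean values of 10.8 and 9.31), whose G2/M mean was 0.776 and 1.20 of its G1 mean, while that of *S100b* was 0.307 and 0.560. Without the 422 and 110 cells with *Dcx*, 29 of the 48 genes rose in S, 33 rose in G2/M and 12 passed the R² threshold, by the measures defined next, as did 13.99%, 14.7% and 5.03% of all genes, and the part of the other cell types in these counts was not tested.

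The 48 genes taken by symbol were mostly higher in S and G2/M cells than in G1 cells. In the S arc, 29 of the 48 (60.4%) were at least 25% above the G1 arc in both cultures, against 14.0% of all genes tested, and 0 were at least 20% below it, against 7.64%. In the G2/M arc, 34 of the 48 (70.8%) rose by this measure against 14.5% of all genes, and 0 fell against 12.3%. Of 21 other genes of the pore and of transport, described further below, 5 rose in S and 8 in G2/M, so most of those did not. The median fold over G1 was 1.41 and 1.48 in the S arc and 1.46 and 1.495 in the G2/M arc, where the medians of all genes were 0.974 and 1.01 in S and 0.954 and 0.979 in G2/M. The 48 genes together took 0.256% and 0.246% of all expression in the last eighth of the cycle, before 2π, and 0.441% and 0.410% in the eighth after π. *Ranbp1* alone held 10.8 and 10.9 of their summed value of 29.7 and 28.0 in the former. In the latter it held 17.7 and 16.1 of 51.1 and 46.8. With the scaling of cells undone, the medians of all genes themselves moved to log2 values of 0.15 and 0.16 in S and 0.27 and 0.28 in G2/M, and relative to these medians 30 of the 48 genes rose in S and 37 in G2/M, as did 14.2% and 16.1% of all genes.

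**Figure D1:**
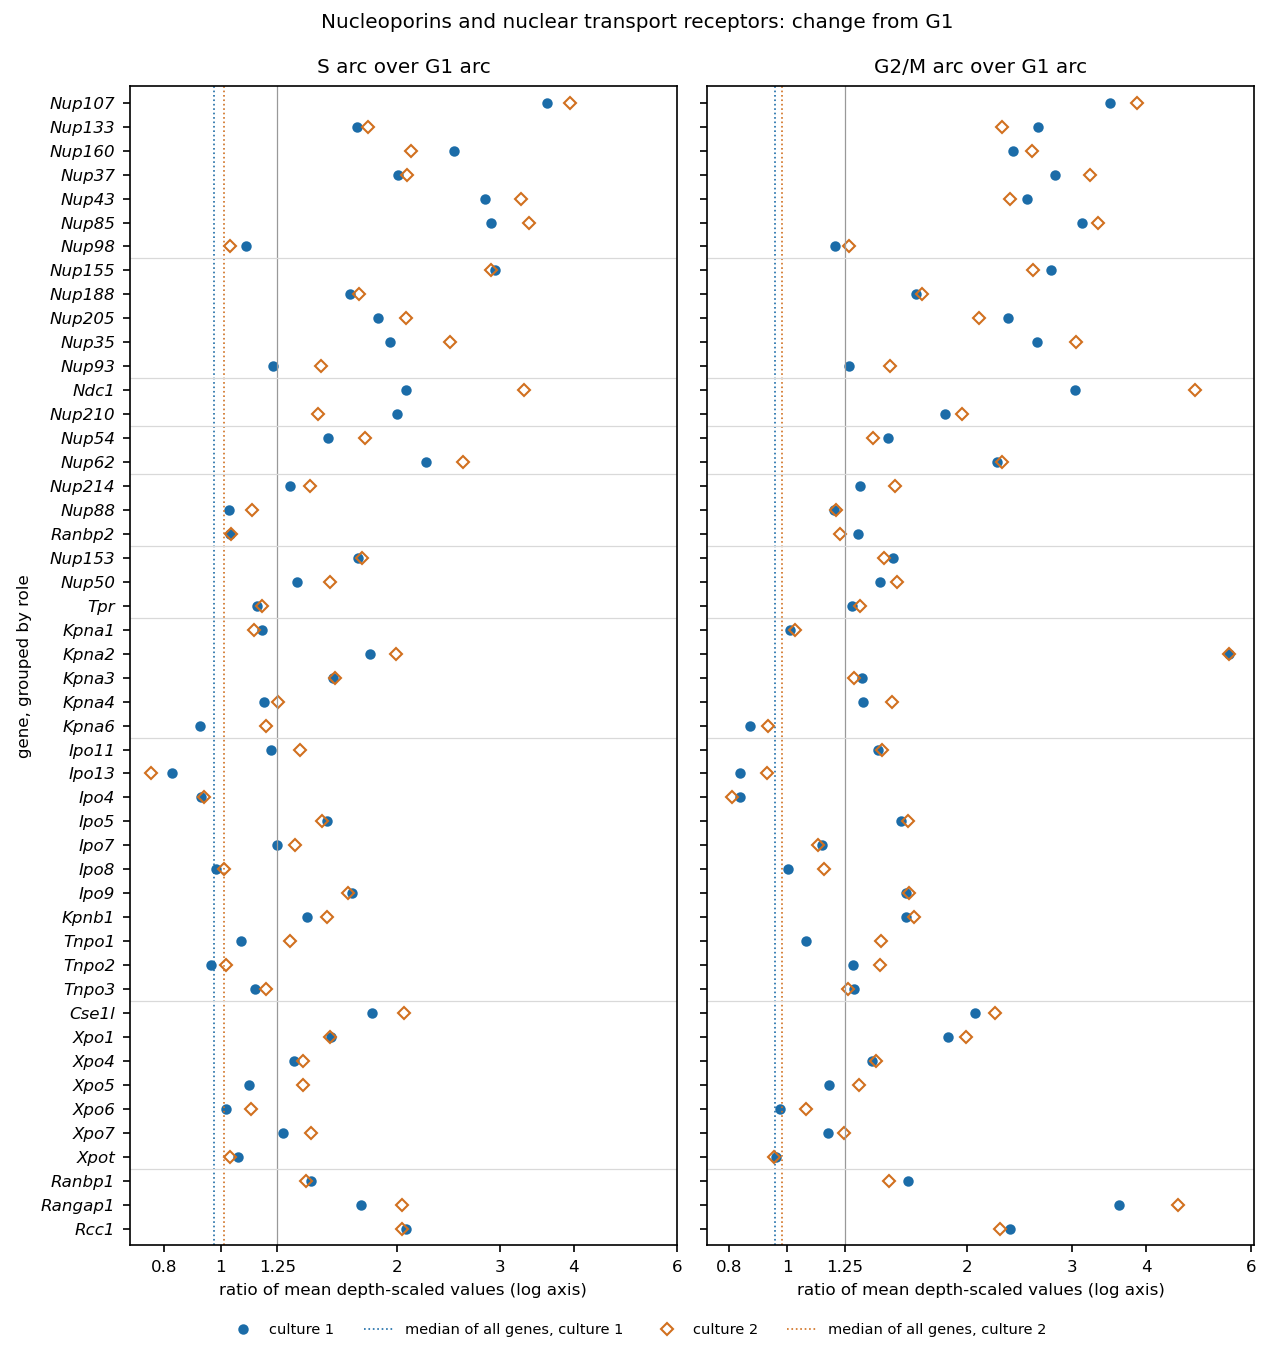
Ratio of mean depth-scaled values in the S arc (left) and the G2/M arc (right) to the G1 arc for each of the 48 genes, grouped by role, on log axes. Filled circles are culture 1, open diamonds are culture 2, dotted lines are the medians of all genes and the grey line is the threshold of 25%; scaffold nucleoporins lie mostly right of that line, and the highest G2/M values are those of *Kpna2*, at 5.50 and 5.52.

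A second measure, which fewer genes passed, was the share of a gene's variance among single cells that the position accounts for. It is the R² of a fit of log2(value + 1) on 2 harmonics of the position. It reached 0.05 in both cultures for 12 of the 48 genes (25%), against 5.06% of all genes tested. These are *Rangap1*, *Kpna2*, *Ranbp1*, *Nup35*, *Nup85*, *Cse1l*, *Ndc1*, *Nup62*, *Nup43*, *Rcc1*, *Nup37* and *Xpo1*, in the order of their lower R², and all 12 rose in both the S and the G2/M arc. The lowest of them was *Xpo1*, with 0.0554 and 0.0522, and just under the threshold were *Nup107*, with 0.0656 and 0.0478, and *Kpnb1*, with 0.0588 and 0.0460. Over all 48 genes the median R² was 0.0182 and 0.0139, against 0.00433 and 0.00316 for all genes, so the position accounted for a small part of the variation between single cells in most of them.

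All 3 regulators of the Ran cycle in the table passed every measure, and this was the only role in which every gene passed the R² threshold. Their summed G2/M fold of 1.74 and 1.65 was below that of the importin alpha adaptors, 2.02 and 2.05. By the median over genes the order was reversed, with 2.37 and 2.28 against 1.34 and 1.296 for the adaptors. *Ranbp1* alone held 11.1 and 11.1 of the G1 sum of the Ran regulators, 12.2 and 12.1. *Kpna2* held 0.493 and 0.421 of the adaptor sum of 2.57 and 2.16 in G1. In G2/M it held 2.71 and 2.32 of 5.2 and 4.42. *Rangap1* encodes the GTPase-activating protein that makes Ran hydrolyse its GTP outside the nucleus. It had a mean value of 0.744 and 0.557 in the G1 arc, 1.29 and 1.14 in the S arc and 2.68 and 2.52 in the G2/M arc. The G2/M arc was thus 3.61-fold and 4.53-fold above G1 and 2.08-fold and 2.22-fold above S. Its R² of 0.366 and 0.295 ranked 81 among all genes tested by the lower of the cultures. The smoothed line of *Rangap1* was highest at 1.31π and 1.21π, the latest maximum among the 12 genes in both cultures. The first of these lies in an eighth of the cycle with 85 cells, and the mean value of *Rangap1* was highest in the eighth after π in both cultures. *Rangap1* is also one of the G2/M genes of Seurat's stage lists, which overlap with the kind of genes that define the position.

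*Rcc1*, the nucleotide exchange factor that loads Ran with GTP on chromatin, had mean values of 0.323 and 0.385 in G1, 0.667 and 0.786 in S and 0.764 and 0.876 in G2/M. It was already 2.07-fold and 2.04-fold above G1 in the S arc and 2.37-fold and 2.28-fold in the G2/M arc, with maxima at 0.975π and 0.880π. *Ranbp1*, a cytoplasmic Ran-GTP binding protein that works with the GTPase-activating protein, had mean values of 11.1 and 11.1 in G1, 15.8 and 15.6 in S and 17.7 and 16.5 in G2/M. Its folds were small, at 1.60 and 1.48 in G2/M, while its R² of 0.266 and 0.159 was the third among the 48 genes and it was detected in nearly every cell. The exchange factor and the binding protein thus rose mainly by S, and the activating protein rose again by 2-fold or more between S and G2/M.

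The importin alpha adaptors bind the classical nuclear localisation signal of a cargo and hand it to importin beta, and they had the widest range of G2/M folds of the 10 roles. *Kpna2* was at 0.493 and 0.421 in the G1 arc, 0.886 and 0.838 in S and 2.71 and 2.32 in G2/M. Its fold of 5.50 and 5.52 in G2/M was the largest of the 48 genes in each culture, and its G2/M mean was 3.06-fold and 2.77-fold its S mean, also the largest. Its R² was 0.395 and 0.275, with maxima at 1.21π and 1.06π. *Kpna3* had its higher level in the S arc, 1.56-fold and 1.57-fold above G1, against 1.34-fold and 1.296-fold in G2/M. *Kpna4* passed the threshold in G2/M, at 1.34-fold and 1.502-fold. *Kpna1* was at 1.01 and 1.03 of its G1 level in G2/M and *Kpna6* at 0.865 and 0.927, so that *Kpna2* had at least 3 times the fold of any other adaptor in both cultures.

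Past the G2/M arc the 2 leading genes parted. In the eighths of the cycle before and after π, *Kpna2* had mean values of 1.73 and 1.35, then of 3.64 and 2.80, and in the next eighth, from 5π/4 to 3π/2, of 0.639 and 0.479. The last value was 0.176 and 0.171 of the one before it. *Rangap1* had 3.29 and 2.87 in the eighth after π and still 2.99 and 2.29 from 5π/4 to 3π/2, which is 0.909 and 0.798 of the earlier value, and 2.18 and 1.46 in the eighth after that. Of the 12 genes, *Kpna2* was the lowest after this step in each culture, and *Nup37* (0.281 and 0.475), *Nup62* (0.324 and 0.426) and *Nup43* (0.547 and 0.585) also lay well below 1. *Ranbp1* (0.892 and 0.905), *Xpo1* (0.857 and 0.909) and *Cse1l* (0.836 and 0.787) kept most of their level, and *Tpr*, which did not pass the R² threshold, was at 1.01 and 1.09. Over the 48 genes the median of this ratio was 0.828 and 0.815, against 0.985 and 0.988 for all genes tested. The arc from 5π/4 to 3π/2 holds only 85 and 279 cells, with median UMIs of 14111 and 11882 against 20527 and 17813 in the arc before it, and the part of that lower depth in these ratios was not tested.

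**Figure D2:**
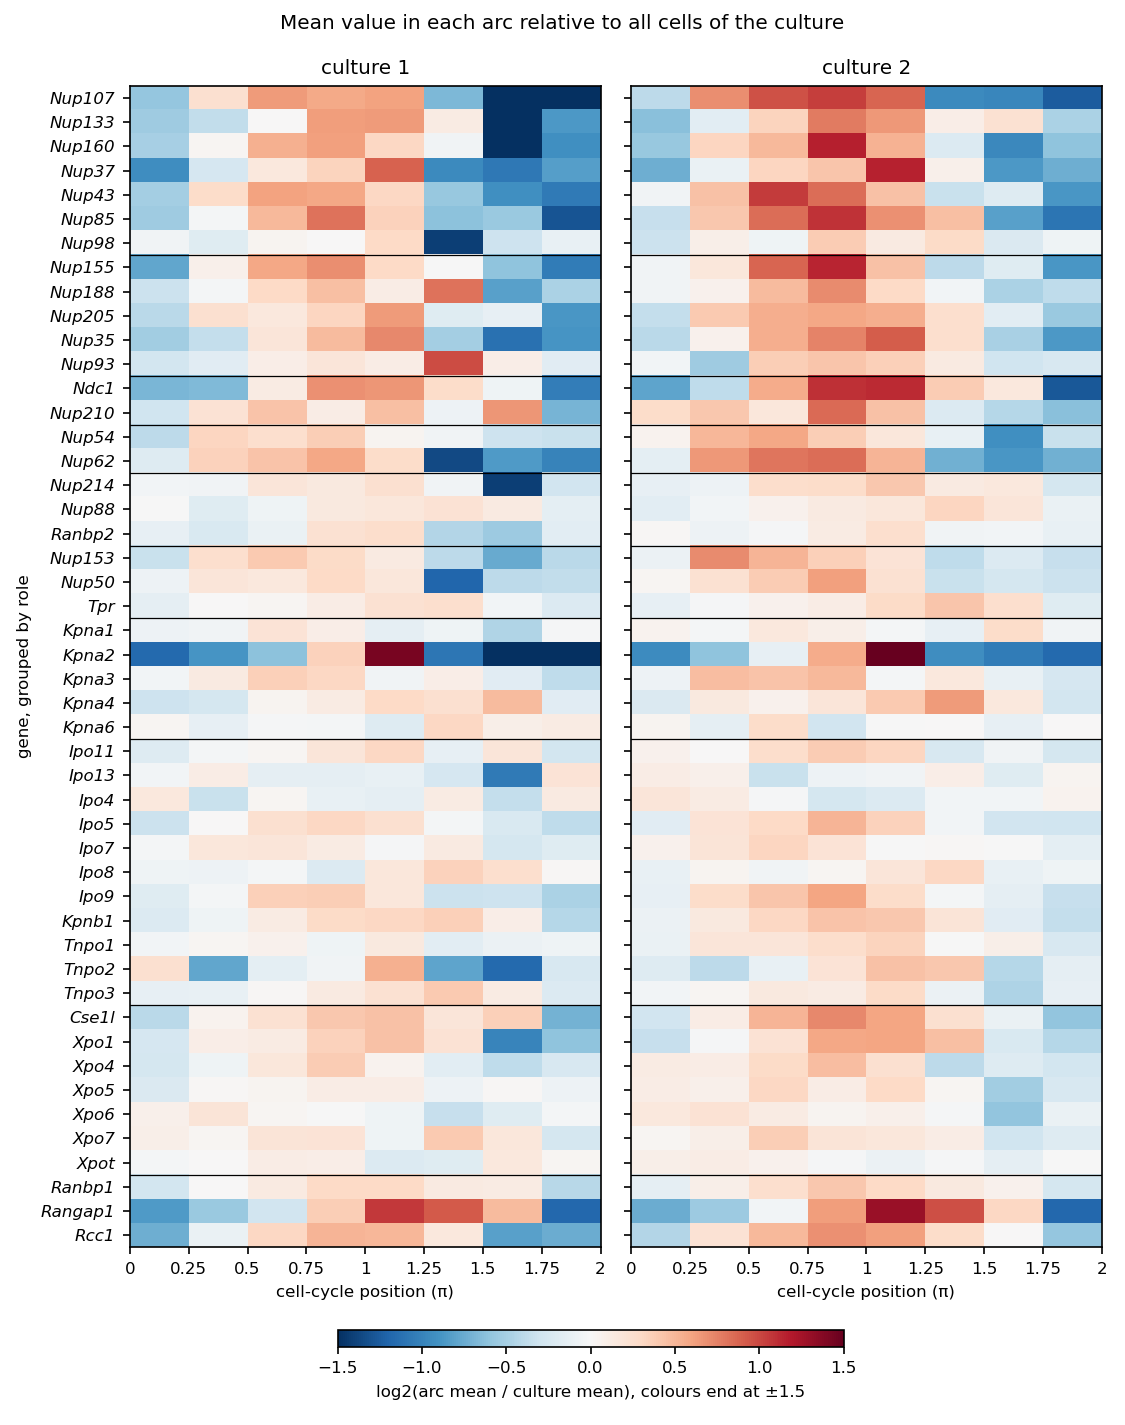
Mean value of each of the 48 genes in 8 arcs of the cell-cycle position, as log2 of its ratio to the mean over all cells of the culture, with colours that end at 1.5 in either direction; culture 1 is on the left and culture 2 on the right, and rows are grouped by role. *Kpna2* is high in the arc after π and low in the next one, where *Rangap1* is still high, and the Y complex is high from π/2 in most rows.

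The deposited table also holds stages from other methods. In cells staged by Seurat, *Kpna2* had 0.482 and 0.417 in G1, 1.02 and 0.823 in S and 3.12 and 2.15 in G2M. *Rangap1* had 0.771 and 0.563 in G1, 1.40 and 1.12 in S and 3.05 and 2.62 in G2M. Because *Rangap1* is one of the G2/M genes of Seurat's lists, its rise over these stages is partly built into the staging. SchwabeCC, which splits G2 from G2.M and leaves many cells without a stage, put the higher *Kpna2* level in G2 (2.13 and 1.72, against 1.23 and 0.782 in G2.M). It put the higher *Rangap1* level in G2.M (2.14 and 1.98, against 1.54 and 1.43 in G2). Of the 12 genes past the R² threshold, 7 (*Cse1l*, *Ndc1*, *Nup43*, *Nup62*, *Nup85*, *Ranbp1* and *Rcc1*) were lower in both G2 and G2.M than in S in both cultures, 0 were higher in all of these, and *Kpna2* itself had 1.38 and 0.951 in S, above its G2.M level. Of the cells that SchwabeCC placed in G2, 57.1% and 60.4% lay in the G1 arc of the position, as did 51.6% and 39.4% of those in G2.M. These methods use marker genes too, and whether *Kpna2* or *Rangap1* is among those of SchwabeCC was not examined.

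Scaffold nucleoporins were already high in the S arc. The Y complex is the outer ring of the scaffold and also binds kinetochores in mitosis. Of its 7 genes that the symbol rule takes, 6 rose in the S arc and 6 in the G2/M arc. Their summed value was 2.48-fold and 2.67-fold above G1 in S and 2.67-fold and 2.70-fold in G2/M. This sum leaves out *Seh1l* and *Sec13*, which the rule does not take and which passed in neither arc. *Sec13* alone had a G1 mean of 2.43 and 2.26, above the G1 sum of the 7 genes, 1.07 and 0.891. *Nup107* was at 0.0831 and 0.0633 in G1, 0.2997 and 0.2502 in S and 0.289 and 0.245 in G2/M. Its S fold of 3.60 and 3.95 was the largest of the 48 genes in both cultures. *Nup85* was at 0.228 and 0.179 in G1, 0.658 and 0.601 in S and 0.710 and 0.595 in G2/M, folds of 2.89 and 3.36 in S and of 3.12 and 3.33 in G2/M.

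*Nup43* was lower in G2/M than in S. It had 0.326 and 0.256 in G1, 0.919 and 0.833 in S and 0.822 and 0.605 in G2/M, so that its G2/M mean was 0.895 and 0.727 of its S mean. Within the G2/M arc it had 0.903 and 0.7198 in the eighth before π and 0.747 and 0.549 in the eighth after it. Its maximum lay at 0.765π and 0.725π, the earliest of the 12 genes. *Nup37* had the opposite order, with 0.175 and 0.145 in G1, 0.351 and 0.301 in S and 0.492 and 0.466 in G2/M, and maxima at 1.245π and 1.095π. *Nup133* was also 1.54-fold and 1.28-fold higher in G2/M than in S, and *Nup160* was at 0.956 and 1.22, where the cultures lay on either side of 1. Subunits of this 1 complex therefore differed in the timing of their transcripts by more than the cultures differed for *Nup43* and *Nup37*. *Nup98*, whose gene also encodes the Y complex subunit Nup96, was at 1.20 and 1.27 in G2/M and did not pass in both cultures.

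The inner ring, which anchors the scaffold to the membrane and the channel, followed the same course. All 5 of its genes rose in G2/M and 4 in S, with a summed fold of 2.27 and 2.31 in G2/M. *Nup35*, a membrane-binding subunit, was at 0.299 and 0.241 in G1, 0.582 and 0.593 in S and 0.784 and 0.735 in G2/M, with an R² of 0.103 and 0.0821. *Nup155* had its higher level in S, with folds of 2.94 and 2.90 against 2.77 and 2.59 in G2/M. *Nup188* (1.65 and 1.68 in G2/M) and *Nup205* (2.34 and 2.10), the large subunits of the ring, lay between these and the remaining gene. *Nup93* had the smallest folds of the ring, at 1.23 and 1.48 in S and 1.27 and 1.49 in G2/M. *Nup35* overlaps *Dusp19* on the same strand, and reads of these genes may be shared.

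Of the transmembrane nucleoporins, *Ndc1* and *Nup210* rose in both arcs. *Pom121*, which the symbol rule does not take, rose in G2/M (1.47 and 1.58) but did not pass in S (1.13 and 1.42). *Ndc1*, which is needed for the assembly of pores into the envelope, was at 0.132 and 0.0909 in G1, 0.275 and 0.299 in S and 0.403 and 0.439 in G2/M. Its G2/M folds of 3.04 and 4.83 lay further apart than those of most scaffold genes, and its maxima were at 1.075π and 1.035π. *Nup210* had folds of 1.84 and 1.97 in G2/M. Of the channel nucleoporins, *Nup62* was at 0.159 and 0.159 in G1, 0.357 and 0.413 in S and 0.357 and 0.365 in G2/M, so it had reached its level by the S arc, and *Nup54* was 1.52-fold and 1.77-fold above G1 in S and 1.48-fold and 1.39-fold in G2/M.

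Among genes that the symbol rule takes, peripheral nucleoporins had smaller folds than most of the scaffold. On the cytoplasmic side, 1 of 3 such genes rose in S and in G2/M, which was *Nup214*, a docking site for export complexes, at 1.33-fold and 1.51-fold in G2/M. *Nup88*, its partner, was at 1.20 and 1.21 and *Ranbp2*, a SUMO ligase that holds Rangap1 protein at the pore, at 1.32 and 1.23. Outside the rule, *Gle1* of this side rose in both arcs (1.74 and 1.83 in G2/M), while *Nupl2* passed in neither (0.869 and 0.870). In the nuclear basket all 3 genes rose in G2/M. *Nup153* and *Nup50* did so in S as well, *Nup153* to 1.71-fold and 1.74-fold above G1 in S and 1.51-fold and 1.45-fold in G2/M. *Tpr*, the filament protein of the basket, was at 2.94 and 2.89 in G1, 3.39 and 3.40 in S and 3.77 and 3.82 in G2/M, a change of 1.28-fold and 1.32-fold. By summed value the basket was 1.32-fold and 1.36-fold above G1 in G2/M and the cytoplasmic side 1.26-fold and 1.27-fold. The Y complex genes of the rule had 2.67 and 2.70, without *Seh1l* and without *Sec13*, which was at 0.857 and 0.835. *Tpr* makes up most of the basket sum, which was 3.71 and 3.63 in G1. These sums therefore do not compare whole structures.

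**Figure D3:**
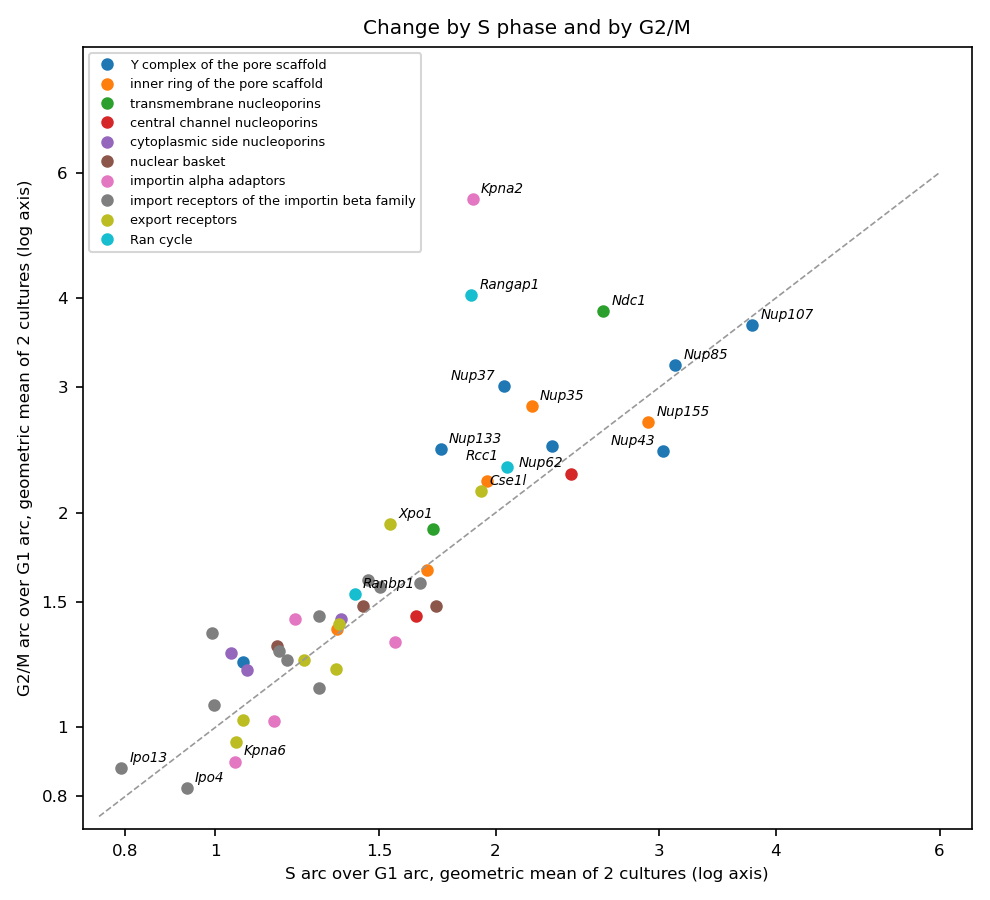
G2/M over G1 fold against S over G1 fold for the 48 genes, as the geometric mean of the 2 cultures on log axes, coloured by role, with the dashed line of equal folds. *Kpna2*, *Rangap1* and *Ndc1* lie above the line, *Nup43* lies below it, and *Ipo13* and *Ipo4* lie below 1 on both axes.

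Most receptors had small folds. Import receptors of the importin beta family had 3 of 11 genes higher in S and 6 of 11 in G2/M, and 0 past the R² threshold. *Kpnb1*, importin beta itself and the partner of the adaptors, was at 0.959 and 0.911 in G1, 1.34 and 1.38 in S and 1.52 and 1.49 in G2/M, a change of 1.58-fold and 1.63-fold. *Ipo5* (1.55 and 1.59 in G2/M) and *Ipo9* (1.58 and 1.60), which carry ribosomal proteins and histones among other cargo, changed by about as much. *Ipo11* (1.42 and 1.44), *Tnpo2* (1.29 and 1.43) and *Tnpo3* (1.29 and 1.26) rose in G2/M but did not pass in S. *Ipo8* was at 1.002 and 1.15 in G2/M. *Ipo7* was above G1 by 1.246-fold and 1.34-fold in S without passing in both cultures, and *Tnpo1* differed between the cultures, with 1.07 and 1.44 in G2/M. *Ipo13* (0.832 and 0.923 in G2/M) and *Ipo4* (0.834 and 0.809) were below their G1 level in both cultures, and neither passed the threshold for lower genes. With the scaling of cells undone, their G2/M folds became 1.10 and 1.03 as means of the cultures, so whether they lie above or below 1 depends on the scaling. The medians of all genes were then 1.21 and 1.21 in the 2 cultures, and both means stayed below these.

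Of the 7 export receptors, 4 rose in S and 3 in G2/M, and 2 passed the R² threshold. *Cse1l* returns importin alpha to the cytoplasm after import. It was at 0.496 and 0.495 in G1, 0.898 and 1.01 in S and 1.02 and 1.10 in G2/M, which is 2.06-fold and 2.23-fold above G1. *Xpo1*, the receptor for leucine-rich export signals, was at 0.492 and 0.487 in G1, 0.759 and 0.749 in S and 0.916 and 0.970 in G2/M, or 1.86-fold and 1.99-fold. *Xpo4* was 1.39-fold and 1.41-fold above G1 in G2/M, and *Xpo7* rose in S, by 1.28-fold and 1.42-fold, but was at 1.17 and 1.246 in G2/M. *Xpo5*, the exportin of microRNA precursors, was at 1.17 and 1.32 in G2/M and did not pass in both cultures. *Xpot*, the exportin of transfer RNAs, was at 0.957 and 0.949 and *Xpo6*, which exports actin, at 0.971 and 1.08, and neither passed in either direction. *Xpo4* overlaps a table gene on the same strand.

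**Figure D4:**
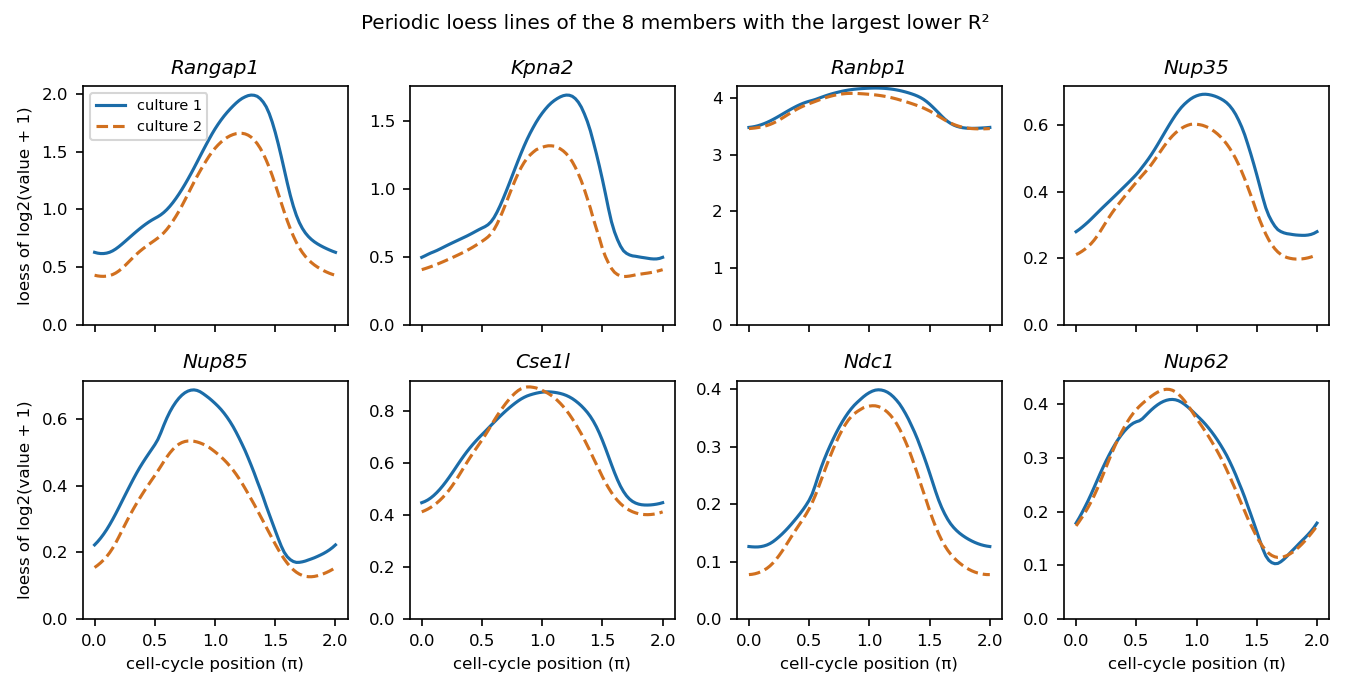
Periodic loess lines of log2(value + 1) against the cell-cycle position, from 0 to 2π, for the 8 genes with the largest lower R², each on its own vertical axis from 0, with culture 1 solid and culture 2 dashed. The lines of *Nup85* and *Nup62* are highest before π in both cultures, and those of *Rangap1* and *Kpna2* after π.

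In the timing of their maxima, 5 of the 12 genes lay in the eighth before π, 5 in the eighth after π, 1 earlier and 1 later, by the mean of the cultures. Of the 422 genes of the whole table past the threshold, 31.5% and 30.6% had their maximum in these eighths, 20.9% in the one before and 13.0% in the one after. The maxima of the 12 differed between the cultures by a median of 0.095π and by 0.01π to 0.195π. Each of the 12 lay earlier in culture 2, so these distances hold a shift that the genes share, and order is read within each culture. *Nup35* (1.07π and 0.975π) lay after *Cse1l* (1.04π and 0.890π) in both, by less than either gene differed between the cultures. The order of *Ranbp1* (1.05π and 0.855π) and *Cse1l* reversed between the cultures and is unresolved. *Nup43* (0.765π and 0.725π) lay before *Rangap1* (1.31π and 1.21π) in both, by more than any of these distances. The G2/M mean was above the S mean in both cultures in 26 of the 48 genes and below it in 15, against 28.0% and 43.9% of all genes tested.

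The level over all cells was lower in culture 2 for most of these genes. The ratio of culture 2 to culture 1 had a median of 0.900 over the 48 genes, with 8 above 1, and of 0.939 over all genes. It was 0.676 for *Kpna2*, 0.743 for *Rangap1* and 0.912 for *Ranbp1*. Cells of the G2/M arc made up 35.8% of culture 1 and 23.6% of culture 2, and those of the G1 arc 42.8% and 56.6%. The part of these shares in the lower levels was not tested.

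Across single cells the leading genes were weakly correlated with each other. Among the 10 genes with the largest lower R², the correlation of log2(value + 1) for the 45 pairs lay between 0.0606 and 0.390 in culture 1, with a range of 0.0542 to 0.284 for culture 2, and was highest for *Kpna2* and *Rangap1*. After the fit on the position was removed, that pair had 0.0522 and 0.0317. The pairs share library, depth and many values of 0, so these are descriptions only. Over the 5748 and 7057 cells, the gene most like *Rangap1* was *Cdca8*, a subunit of the chromosomal passenger complex, with a correlation of 0.543 and 0.502, followed by *Ube2c*, *Hmgb2*, *Tpx2* and *Cenpf*. The gene most like *Kpna2* was *Prc1*, a bundler of spindle midzone microtubules (0.672 and 0.572), followed by *Top2a*, *Cenpf*, *Nusap1* and *Ube2c*. The one most like *Ranbp1* was *Pclaf*, a PCNA-binding protein (0.517 and 0.409), followed by *Ptma*, *Hmgb2*, *Rrm2* and *Hmgb1*.

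Promoters were read from RefSeq on GRCm38.p6, from 250 bases before to 50 bases after each annotated start, where +1 is the start. They matched 39 of the 48 genes, with 46 windows, and 8 of the 12 genes past the R² threshold, with 9 windows. The letters searched on both strands were CCAAT, the box bound by NF-Y, and TTTGAA and TTTAAA, the forms of the cell cycle genes homology region found in promoters of G2/M genes. Also searched were TTTGGCGC, TTTCGCGC and TTTCCCGC, forms of the E2F site, and CACGTG, the E-box. TTTGAA was in 12 of the 46 windows (26.1%), against 17.9% of 32851 windows of all genes, and in 7 of the 9 windows of the 12 genes. CCAAT was in 23 of the 46 (50%) against 37.4%, and in 6 of the 9. TTTAAA was in 3 of the 46 (6.52%) against 13.2%, and CACGTG in 8 of the 46 (17.4%) against 7.15%, with 0 of the 9. TTTGGCGC was in 0 of the 46, TTTCGCGC in 1 and TTTCCCGC in 2, against 0.514%, 0.323% and 1.07% of all windows. Windows of 1 gene overlap each other, and a match of letters is a description and not a binding site.

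The 4 sequences below, in capitals where a searched motif lies on either strand, are those of *Rangap1*, which had the largest lower R², and of *Kpna2*, *Ranbp1* and *Nup37*, the genes past the R² threshold whose window holds CCAAT together with TTTGAA or TTTAAA, as do 10.7% of all windows.
Kpna2, chr11:106999476-106999775, minus strand: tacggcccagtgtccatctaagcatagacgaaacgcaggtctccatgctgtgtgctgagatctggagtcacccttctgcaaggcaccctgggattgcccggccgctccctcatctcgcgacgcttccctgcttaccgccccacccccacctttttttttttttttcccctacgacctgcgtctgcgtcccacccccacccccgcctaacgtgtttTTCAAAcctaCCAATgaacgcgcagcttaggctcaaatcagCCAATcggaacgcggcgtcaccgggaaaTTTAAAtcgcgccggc
Rangap1, chr15:81729870-81730169, minus strand: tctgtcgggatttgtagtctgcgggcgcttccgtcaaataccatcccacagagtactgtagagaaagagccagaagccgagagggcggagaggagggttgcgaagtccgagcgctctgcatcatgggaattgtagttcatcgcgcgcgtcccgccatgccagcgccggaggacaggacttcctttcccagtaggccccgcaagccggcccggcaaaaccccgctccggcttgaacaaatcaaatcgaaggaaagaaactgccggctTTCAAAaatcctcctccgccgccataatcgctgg
Ranbp1, chr16:18248645-18248944, minus strand: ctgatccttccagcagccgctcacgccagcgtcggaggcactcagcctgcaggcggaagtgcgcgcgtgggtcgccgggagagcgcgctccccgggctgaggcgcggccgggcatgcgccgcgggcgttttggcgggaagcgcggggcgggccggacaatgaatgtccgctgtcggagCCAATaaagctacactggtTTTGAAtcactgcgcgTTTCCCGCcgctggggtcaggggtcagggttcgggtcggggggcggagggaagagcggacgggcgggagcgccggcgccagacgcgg
Nup37, chr10:88146742-88147041, plus strand: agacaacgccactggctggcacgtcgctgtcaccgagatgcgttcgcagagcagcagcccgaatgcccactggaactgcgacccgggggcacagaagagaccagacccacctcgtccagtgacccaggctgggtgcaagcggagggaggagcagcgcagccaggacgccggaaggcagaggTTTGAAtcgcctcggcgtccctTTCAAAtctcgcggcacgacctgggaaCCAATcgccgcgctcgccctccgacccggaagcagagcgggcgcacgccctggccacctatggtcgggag
The window of *Kpna2* holds CCAAT at -25 and +7, TTTGAA on the reverse strand at -35 and TTTAAA at +35. That of *Ranbp1* holds CCAAT at -72, TTTGAA at -53 and TTTCCCGC at -37. *Nup37* has TTTGAA at -69, its reverse complement at -47 and CCAAT at -20, and a second annotated start of this gene lies in an overlapping window. *Rangap1* has 1 match, TTTGAA on the reverse strand at +17.

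By the gene annotation of the same build, *Kpna2* (ENSMUSG00000018362) spans chr11:106988629-106999541 and *Rangap1* (ENSMUSG00000022391) chr15:81704248-81745530, both on the minus strand. *Ranbp1* (ENSMUSG00000005732) spans chr16:18239784-18248732. *Rangap1* overlaps *Zc3h7b*, *Ranbp1* overlaps *Trmt2a*, *Nup62* overlaps *Atf5* and *Nup43* overlaps *Pcmt1* on the opposite strand, and *Rcc1* overlaps *Snhg3* on the same strand. Of the 48 genes, 8 overlap a table gene on the opposite strand and 3 on the same strand, and whether the counting used the strand is not given in the sources used here. A pseudogene of *Kpna2* exists in the annotation, so reads from it may have been split.

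Other genes of the pore and of transport were counted in the same way. From a list of 23 such genes that the symbol rule does not take, 21 are in the table, and of these 5 rose in S, 8 rose in G2/M, 0 fell in either and 1 passed the R² threshold. Over all genes tested, 14.0% rose in S, 14.5% rose in G2/M and 5.06% passed the R² threshold, so that 1 of 21 is near the share of all genes. That gene was *Nxt1*, a partner of the messenger RNA export receptor, with 0.627 and 0.706 in G1, 1.76 and 2.01 in S and 1.63 and 1.63 in G2/M, and an R² of 0.208 and 0.176. *Nxf1*, the export receptor itself, was 1.55-fold and 1.43-fold above G1 in G2/M with an R² of 0.0219 and 0.00911. *Ahctf1*, which recruits the Y complex to chromatin after mitosis, rose by 1.80-fold and 1.57-fold in G2/M. Of the remaining Y complex genes, *Seh1l* was at 1.36 and 1.21 in G2/M and *Sec13*, which also coats vesicles of the secretory pathway, at 0.857 and 0.835, so neither passed in both cultures.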

How the data were processed

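Cells of 2 neurosphere cultures were profiled with 10x Genomics 3' chemistry. The labels give kit version 2 and the paper's methods version 3. By the paper's methods, the authors quantified spliced transcripts with alevin (Salmon 1.3.0, per the labels) against GRCm38, and removed outlying cells and mitochondrial genes. The expression values deposited by the authors are a depth-normalized signal on a linear scale, and whole reads were not recovered from them, so no count test was run. Total UMIs per cell are deposited by the authors as estimated counts, and the cell-cycle position (radians) and stages are deposited by the authors as other values. Which genes of this report helped to define the position is not known here.

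The members and lists were chosen with earlier results of these data known. Genes were fitted in each culture as log2(value + 1) on 2 harmonics of the position and called at an R² of 0.05. Ratios of arc means were called at 25% above or 20% below, each in both cultures, over the 8333 genes detected in at least 5% of cells of each culture. Lines are periodic loess fits (degree 2, span 0.3 of the tripled data, 401 positions). There are no p-values, because 1 condition has no groups. The R² step was tested on simulated data, in which 1000 genes had their values shuffled among cells and some were given a single wave. Of the 100 genes with a wave of 20% of the mean, 0 reached the R² threshold in both cultures, as did 16 of the 100 with a wave of 50% and 0 of the 800 left without one. Doublets were removed by the authors by score, and no caller was run here. Genes named are those past the R² threshold, the highest by level or R² in each role, and the 10 largest and 5 smallest G2/M folds. Others were named after their values were seen, as were the ratios past the G2/M arc. Python 3.11.15, numpy 2.4.6 and pandas 2.3.3 were used, with the gene lists of Seurat 5.3.0. The alternatives are given in the closing section. Coordinates are of GRCm38 in a GENCODE release earlier than that of the authors. No per-sample column was left unmapped, and identity between importin alpha proteins was not analysed here.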

Additional observations from a re-analysis of the deposited data

How the results depend on the processing

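Shares of all genes stand in brackets. At an R² threshold of 0.02, 19 genes passed (10.3%), and at 0.1, 3 did (2.86%), and 10 passed with depth in the fit (4.88%). At 1.5-fold, 21 genes rose in G2/M (8.10%). With cyclone stages, which hold only 133 and 56 S cells, 22 rose in G2/M (9.59%) and 1 fell in S (8.95%). Among the 30 of the 48 genes detected in at least 20% of cells of each culture, 16 rose in S (11.5%) and 19 in G2/M (12.6%), since fewer genes were tested. In cells of 12000 to 20000 UMIs, an alternative chosen after seeing the data, 1 gene fell in G2/M (13.1%), and 33 rose (15.6%). With the scaling of cells undone, 37 rose in S (22.9%) and 44 in G2/M (36.1%), and the 4 genes below 1 in G2/M in both cultures came out above it (*Kpna6* 1.14, *Ipo13* 1.10, *Ipo4* 1.03 and *Xpot* 1.23, as geometric means). With a position recomputed from 89 genes of Seurat's lists that are not members, which differed from the deposited one by a median of 0.0347π, 11 genes passed the R² threshold (4.99%), 30 rose in S (14.2%) and 33 in G2/M (13.99%). Leaving out either culture in turn gave 12 to 16 genes past the R² threshold (5.38% to 7.03%), 29 to 35 higher in S (16.9% to 21.2%), 0 to 1 lower in S (12.1% to 15.9%), 35 to 37 higher in G2/M (17.5% to 18.5%) and 0 lower in G2/M (16.3% to 22.6%). Other alternatives, such as a pseudocount of 0.1 or the 48 shared barcodes left out, kept each count within 1.5 times its value. The maximum of 12 of the 25 named genes moved by more than the spread of the cultures at a loess span of 0.1, and of 12 at 0.5. *Stmn2* was not analysed here, so cells were left out by *Dcx* alone. No paired analysis was possible because the 2 cultures are replicates of 1 group. The lower depth of culture 2 limits the precision of genes detected in few cells, such as *Nup160*.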
